A study of Danio rerio with 4 samples.

Results

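The zinc finger genes whose symbol begins with znf or zbtb and a number were followed in early zebrafish (Danio rerio) embryos with and without α-amanitin, an inhibitor of RNA polymerase. Members were chosen by symbol alone, which the authors' transcript comparison tables gave or, failing that, the zebrafish RefSeq gene table. The rule found 114 genes among 14905 named genes of the series. Of these, 111 were among the 14792 RefSeq genes of the deposited expression table, and zbtb12.1, zbtb44 and znf236 had long-read transcript models alone. They comprised 29 znf genes numbered 900 and above, 61 znf genes with lower numbers and 24 zbtb genes.

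The α-amanitin library was a PacBio long-read library from a pool of 15 embryos injected with 0.2 nmol of α-amanitin when they had 1 to 4 cells, so as to suppress zygotic genome activation (ZGA), when the embryo begins to transcribe its own genome. The untreated library came from a pool of 15 uninjected embryos. Both were made from polyadenylated RNA of wild-type embryos from natural spawning of AB, TAB14 or TAB5 adults, and which of these lines gave which pool is not given. Both carry a label of 6 hours post fertilization. By source name, however, the α-amanitin pool was at an earlier stage, before ZGA, and the untreated pool at epiboly. This conflict was not settled. The expression table has an α-amanitin and a control column, and the reads behind them are not given in the sources used here. The series also holds short-read libraries of untreated embryos at 2.5 and 5.25 hours, without files of their own here, and if the columns hold those reads the differences below are between stages and not between treatments. There was 1 library per group, so differences could not be checked against replicates, and p-values are left out.

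Zinc fingers of the C2H2 kind are small folds held by a zinc ion, strung in arrays in which successive fingers read successive DNA bases. Zbtb proteins carry such an array behind a BTB domain, which pairs the protein with itself and recruits corepressors or the ubiquitin ligase scaffold Cullin 3. Fish genomes hold a large family of znf genes in clusters, many of which have no one-to-one human counterpart and bear high numbers in zebrafish nomenclature. Eggs are loaded with maternal mRNA that is cleared around ZGA, so early embryos hold a mixture of maternal and newly made transcripts.

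The symbol is a name and not a test of the fold. Among the members, znf185 is named for a LIM domain protein, and zbtb8os for a gene on the strand opposite a zbtb gene, whose human counterpart, archease, activates the tRNA ligase. The 3 RefSeq transcripts that the authors' tables call znf395 are called fam49a in the newer GRCz12tu gene table. In the other direction, 4 transcripts carry a znf name only in that newer table and are not members. One of them, LOC103910465, or znf1140 in the newer table, stood at 4.85 TPM in the α-amanitin column and 64.4 TPM in the control column. Higher in the α-amanitin column were those named znf1187 (8.01 TPM, and 0 in the control) and znf423 (19.95 TPM, and 3.26 TPM in the control). The transcript named znf384b was listed at 0 in both columns. TPM is a transcript level scaled to transcript length and to a total of 1000000 per column, and every expression value here is a TPM or a log2 ratio of (TPM + 1).

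The columns were checked against marker genes. All 10 zygotic markers measured, such as vox, tbx16 and sox32, were at least 2-fold lower in the α-amanitin column, with a median log2 ratio of −6.72. Among 9 maternal markers, 6 were at least 2-fold higher in it, such as btg4 at 911 TPM in the α-amanitin column and 18.3 TPM in the control column. The marker bmp15 was at least 2-fold lower (log2 ratio −1.06), at levels of 8.25e-10 TPM with α-amanitin and only 1.08 TPM in the control. Each library held a long-read model of bmp15. Within 2-fold lay buc (−0.03) and dazl (0.32). In these pooled embryos, fewer cells of a type and less RNA per cell cannot be told apart.

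The members were measured more often than the average gene. At least 1 TPM was reached by 92 of 111 members (82.9%) in the α-amanitin column and by 91 (82.0%) in the control column, against 59.6% (α-amanitin) and 65.6% (control) of all RefSeq genes. Their median level was 7.60 TPM in the α-amanitin column and 8.70 TPM in the control column, and that of all RefSeq genes was 2.71 TPM with α-amanitin and 3.27 TPM in the control. Summed over the RefSeq rows of the members, the level was 2061 TPM in the α-amanitin column and 1989 TPM in the control column. This RefSeq total was nearly alike while its makeup was not. All RefSeq genes together held 408878 TPM (α-amanitin) and 438314 TPM (control) of the 1000000 per column. The 16639 long-read (PB) transcripts of the table were not joined to genes. For the 76 measured members with a long-read model, the levels given here can therefore be partial.

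By the level of their RefSeq rows alone, the highest members differed between the columns. In the α-amanitin column znf576.2 led at 146 TPM, followed by zbtb14 at 116, znf1035 at 106, znf367 at 102 and znf281b at 96.3 TPM. In the control column znf1137 led at 161 TPM, followed by znf576.2 at 117, znf395a at 85.2, znf207a at 74.2 and znf1035 at 73.1 TPM. Both znf576.2 and znf1035 were among the 5 highest in each column. The first of these had a log2 ratio of 0.32, which became −0.16 under the scaling described below, and the second had 0.53. By contrast znf1137 was at 2.34 TPM in the α-amanitin column.

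**Figure D1:**
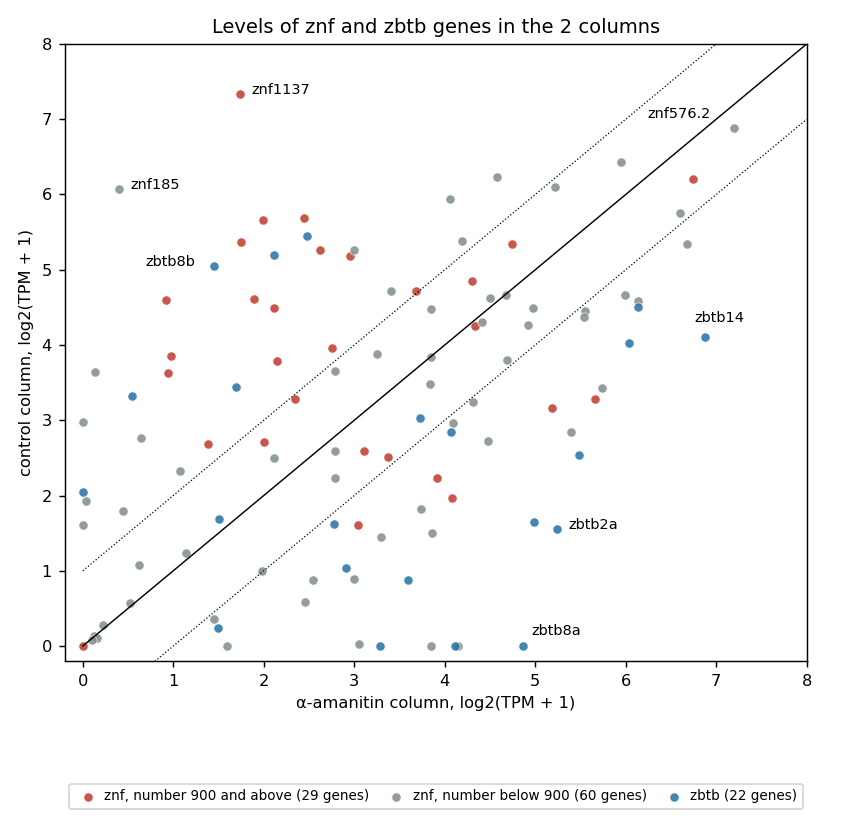
Each point is 1 of 111 znf or zbtb genes, with its log2(TPM + 1) in the α-amanitin column on the x axis and in the control column on the y axis; the solid line marks equal levels and the dotted lines a 2-fold difference. The znf genes numbered 900 and above lie mostly above the solid line (20 of 29) and the zbtb genes mostly below it (15 of 22).

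Of the 111 members, 34 were at least 2-fold lower in the α-amanitin column (30.6%, where 22.5% of all RefSeq genes were) and 40 were at least 2-fold higher (36.0%, where 25.7% of all genes were). The remaining 37 lay within 2-fold. A gene below 1 TPM in both columns cannot pass this threshold, and among genes that reach 1 TPM in a column the background was 30.2% lower and 34.5% higher, near the members' 34 and 40 of 105. As a whole the members therefore stood near the background of measured genes. Their median log2 ratio was 0.05, against 0.00 for all genes. Shifting all ratios by 0.49, so that the median of 7522 genes of at least 1 TPM in both columns is 0, gave 42 lower (30.5% of all genes) and 29 higher (18.7% of all genes), so that 40.8% of the called members were higher in place of 54.1%, and turned the members' median to −0.44. All genes moved with them, to a median of −0.49. Of the 11011 genes that reach 1 TPM in a column, 4108 were lower and 2772 higher under scaling, beside 42 and 29 of 105 members.

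The symbol groups lay apart. Over all RefSeq genes 22.5% were at least 2-fold lower in the α-amanitin column and 25.7% higher. Among those that reach 1 TPM in a column 30.2% were lower and 34.5% higher. The znf genes numbered 900 and above had a median log2 ratio of −1.04, with 15 of 29 lower (51.7%) and 5 higher (17.2%). The znf genes with lower numbers had a median of 0.15, with 13 of 60 lower (21.7%) and 21 higher (35.0%). Under scaling this median turned to −0.34 and the balance of calls turned over, to 17 lower and 14 higher. Over all genes 30.5% were lower and 18.7% higher under scaling, and of the 11011 that reach 1 TPM in a column 4108 were lower and 2772 higher. The zbtb genes had a median of 1.45, with 6 of 22 lower (27.3%) and 14 higher (63.6%). Their share lower was near the background of genes that reach 1 TPM. Under scaling the medians of the high-numbered znf genes and of the zbtb genes were −1.52 and 0.96, so both kept their direction, with 19 lower and 4 higher among the high-numbered znf genes and 6 lower and 11 higher among the zbtb genes. Within 2-fold lay 2 of 22 zbtb genes, or 5 under scaling, and 26 of 60 lower-numbered znf genes. All 22 zbtb genes reach 1 TPM in a column, and 3885 of the 11011 genes that do so (35.3%) lay within 2-fold. These group medians describe 1 library per column, and the difference between the groups was not tested.

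**Figure D2:**
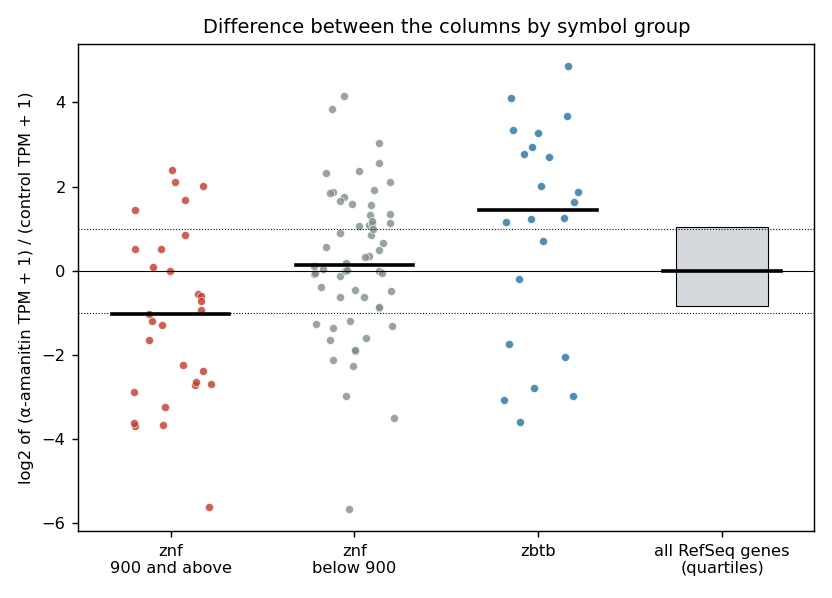
Each point is a gene, placed at the log2 ratio of its (α-amanitin TPM + 1) to its (control TPM + 1); thick lines are medians, the grey box spans the quartiles of all 14792 RefSeq genes (−0.83 to 1.04) and dotted lines mark 2-fold. The median lies at −1.04 for znf genes numbered 900 and above, at 0.15 for the other znf genes and at 1.45 for zbtb genes.

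The high-numbered znf genes, 29 of the 111 measured members, held 5 of the 10 with the lowest log2 ratio. These were ranked among the 72 members that reach 10 TPM in a column. Of the 5, znf1137 was at 2.34 TPM in the α-amanitin column and 161 TPM in the control column (log2 ratio −5.60). The level of znf1041 was 2.99 TPM in the α-amanitin column and 49.4 TPM in the control column (−3.66). For znf1059 the values were 2.36 TPM with α-amanitin and 40.2 TPM in the control (−3.62). These genes were low, but not at 0, in the α-amanitin column.

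The level of znf1124 was 4.46 TPM in the α-amanitin column and 50.6 TPM in the control column (log2 ratio −3.24), and that of znf1024 was 0.885 TPM with α-amanitin and 23.2 TPM in the control (−3.68). A further 10 high-numbered genes were at least 2-fold lower, from znf983 at −1.04 to znf1068 at −2.88. The 5 at least 2-fold higher were znf1014, znf1173, znf989, znf1161 and znf1162. At the top of these, znf1014 was at 49.7 TPM in the α-amanitin column and 8.70 TPM in the control column (2.39). Under scaling, znf1162 came to 0.95 and was no longer past 2-fold. The high-numbered genes thus held members of both directions, with the lower ones more numerous.

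High-numbered znf genes of zebrafish often have close relatives, and reads that match several genes can be divided among them, so single values of this group are uncertain; the sharing of reads was not tested. The GRCz12tu gene order placed 27 of the 29, and 13 of these had another member within 10 protein-coding genes. The same held for 4 of 57 placed lower-numbered znf genes and for 3 of 22 zbtb genes. Of the 106 placed members of all groups, 0 were directly adjacent to another member. Among members within 10 genes of each other, znf1041 and znf1059 were both lower in the α-amanitin column (−3.66 and −3.62). The neighbours znf1157 (−1.30) and znf1161 (1.68) differed in direction.

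The zbtb genes, 22 of the 111 measured members, held 7 of the 10 with the highest ratio and 3 of the 10 with the lowest. The level of zbtb14, whose protein binds GC-rich promoters in mammals, was 116 TPM in the α-amanitin column and 16.3 TPM in the control column (log2 ratio 2.77). For zbtb2a, whose human counterpart represses genes of the p53 pathway, the values were 36.9 TPM with α-amanitin and 1.94 TPM in the control (3.69). The level of zbtb18, a transcriptional repressor that acts in neuronal differentiation in mouse, was 30.7 TPM in the α-amanitin column and 2.14 TPM in the control column (3.34). Members ranked by ratio must reach 10 TPM in a column. Of the 10 with the highest ratio, all but zbtb14 reached it in the α-amanitin column alone. The 10 with the lowest ratio all reached it in the control column alone. The filter thus depends on the direction, and these rankings are descriptions only.

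The level of zbtb1, needed for lymphoid development in mouse, was 43.6 TPM in the α-amanitin column and 4.81 TPM in the control column (log2 ratio 2.94). For zbtb10 the values were 11.05 TPM with α-amanitin and 0.841 TPM in the control (2.71). Of the other zbtb genes, zbtb11, which zebrafish need for neutrophil development, was at 69.5 TPM with α-amanitin and 21.6 TPM in the control (1.64). The gene zbtb24, mutated in a human immunodeficiency with unstable centromeres, was at 15.8 TPM in the α-amanitin column and 6.19 TPM in the control column (1.22, and 0.74 under scaling).

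Several zbtb genes went the other way. The level of zbtb8b was 1.73 TPM in the α-amanitin column and 32.1 TPM in the control column (log2 ratio −3.60). For zbtb26 the values were 3.33 TPM with α-amanitin and 35.6 TPM in the control (−3.08). The level of zbtb12.2 was 4.59 TPM in the α-amanitin column and 42.7 TPM in the control column (−2.97). The zbtb genes were thus split into a larger set that was higher and a smaller set that was lower in the α-amanitin column.

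Some of the largest differences rest on a level listed at 0. The gene zbtb8a was at 28.1 TPM in the α-amanitin column and listed at 0 in the control column. Likewise zbtb22b was at 16.3 TPM, znf511 at 13.4 TPM and zbtb43 at 8.72 TPM with α-amanitin and listed at 0 in the control. The transcripts named znf395 summed to 16.7 TPM in the α-amanitin column and to 9.79e-09 TPM in the control column. In all, 4 members were listed at 0 with α-amanitin and 5 in the control, where 13.9% (α-amanitin) and 6.17% (control) of all genes were. Among the 11011 genes that reach 1 TPM in a column, 485 were at 0 with α-amanitin and 303 in the control. Of the 105 such members, 3 were at 0 with α-amanitin and 5 in the control. Of the 22 zbtb genes, 1 was at 0 with α-amanitin and 3 in the control.

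A listed 0 can be a failed estimate, and long-read (PB) transcripts of the same genes have rows of their own in the table that were not joined to genes here. Of the 5 members at 0 in the control column, 4 had a long-read model in the untreated library, so their RNA was sampled there. Without the members below 0.001 TPM in either column, the zbtb median was 1.24 over 18 genes. An alternative added after seeing the data kept the 35 members with no long-read model in either library, whose RefSeq row has no such competitor among the models named for the gene. Of these, 17 were at least 2-fold lower in the α-amanitin column (48.6%) and 7 higher (20.0%), with a median of −0.60. Genes without a model and with at least 1 TPM in either column had a background of 46.9% lower and 18.9% higher.

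The groups were then read with and without models. Of the 11 high-numbered znf genes without a model, 9 were at least 2-fold lower and 0 higher in the α-amanitin column (median −2.38). Among the 18 with a model, 6 were lower and 5 higher (−0.28). The 8 zbtb genes without a model had 3 lower and 4 higher (0.48, and −0.0057 under scaling), and the 14 with a model 3 lower and 10 higher (2.74). Genes with a model and at least 1 TPM in either column had a background of 20.7% lower and 43.4% higher. The presence of a model thus moved with the direction in both groups as it did over all genes, and its part in the difference between the groups was not tested.

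**Figure D3:**
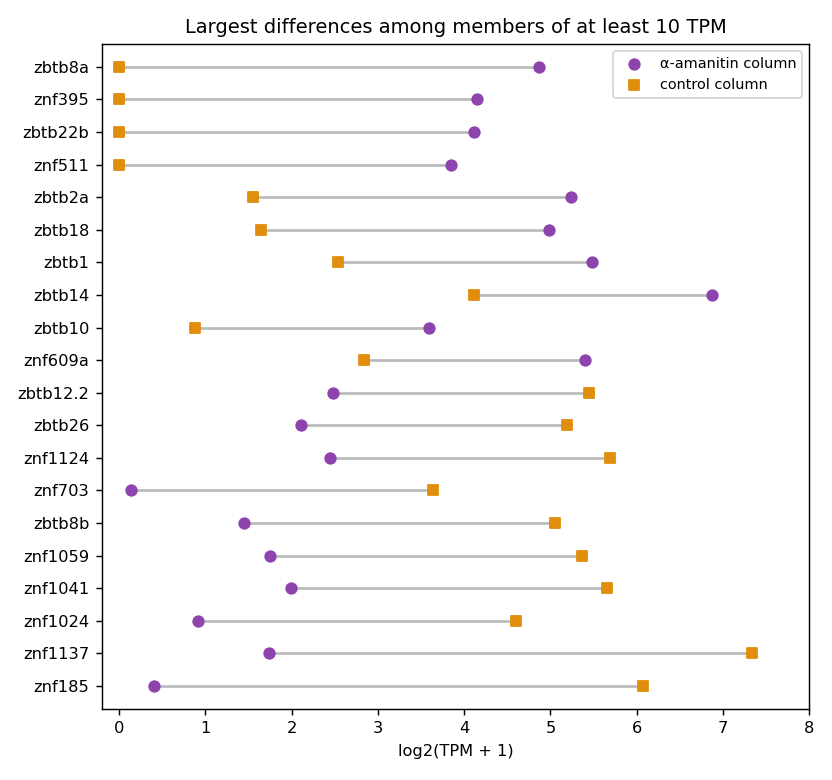
Levels, as log2(TPM + 1), of the 10 members with the highest log2 ratio (top) and the 10 with the lowest (bottom) among members of at least 10 TPM in either column; circles are the α-amanitin column and squares the control column. Levels of zbtb8a, znf395, zbtb22b and znf511 in the control column are at or next to 0, and the widest gaps at the bottom are those of znf185 (0.323 TPM with α-amanitin and 66.2 TPM in the control) and znf1137 (2.34 TPM with α-amanitin and 161 TPM in the control).

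Members with known roles outside DNA binding at promoters were mixed. Of 8 measured genes linked to RNA, ribosomes or the spindle, 2 were at least 2-fold lower in the α-amanitin column and 2 higher. The other 4 lay within 2-fold, and the median log2 ratio was −0.04. Over all genes 22.5% were lower and 25.7% higher. Among genes that reach 1 TPM in a column, as all 8 do, 30.2% were lower and 34.5% higher. Under scaling 4 of the 8 were lower and 2 higher (median −0.52). The level of znf346, whose protein binds double-stranded RNA in mammals, was 15.7 TPM in the α-amanitin column and 60.3 TPM in the control column (−1.88). For znf207a, a partner of the checkpoint protein Bub3 at kinetochores in human cells, the values were 22.9 TPM with α-amanitin and 74.2 TPM in the control (−1.65). The level of znf598, a ubiquitin ligase for collided ribosomes in human cells, was 8.84 TPM with α-amanitin and 1.73 TPM in the control (1.85). The other gene past 2-fold was znf511, given above as listed at 0 in the control column.

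Of 7 measured promoter-binding activators, 3 were at least 2-fold higher in the α-amanitin column and 0 lower (median 0.85). Over all genes 25.7% were higher and 22.5% lower. Among genes that reach 1 TPM in a column, as all 7 do, 34.5% were higher and 30.2% lower. Under scaling 2 of the 7 were higher (median 0.37). The level of znf143a, an activator of small nuclear RNA and mRNA promoters in vertebrates, was 69.4 TPM in the α-amanitin column and 22.9 TPM in the control column (log2 ratio 1.56). Its relative znf76 was at 13.5 TPM with α-amanitin and 1.83 TPM in the control (2.36). For znf410, an activator of the remodeler gene CHD4 in mammals, the values were 18.9 TPM with α-amanitin and 8.49 TPM in the control (1.07, and 0.58 under scaling). The gene znf281b, a factor of mammalian pluripotent cells, was high in both columns, at 96.3 TPM with α-amanitin and 52.8 TPM in the control (0.85).

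Of 9 measured developmental zinc fingers of neural, epidermal and blood tissue, 6 were at least 2-fold higher in the α-amanitin column and 2 lower. Over all genes 25.7% were higher and 22.5% lower. Among genes that reach 1 TPM in a column, as all of the 9 but znf385b do, 34.5% were higher and 30.2% lower. Under scaling 4 were higher, as zbtb7b (0.66) and zbtb20 (0.77) came within 2-fold. Most of the 9 stood at low levels (median 2.03 TPM with α-amanitin and 1.05 TPM in the control). The pair lower were znf703 and znf750. The level of znf703, a corepressor that patterns the zebrafish hindbrain, was 0.0963 TPM in the α-amanitin column and 11.4 TPM in the control column (log2 ratio −3.50). The gene znf750, a driver of epidermal differentiation in human, was listed at 0 in the α-amanitin column and at 6.85 TPM in the control column. On the other side, zbtb16a, the Plzf repressor, was at 6.54 TPM with α-amanitin and 1.05 TPM in the control (1.88). Of the methyl-CpG and telomere binders listed, zbtb33 (Kaiso) alone was measured, at 2.23 TPM in the α-amanitin column and 9.83 TPM in the control column (−1.74).

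The member with the lowest log2 ratio was znf185, whose mammalian counterpart is a LIM domain protein that associates with the actin cytoskeleton. It was at 0.323 TPM in the α-amanitin column and 66.2 TPM in the control column (log2 ratio −5.67). Among other lower-numbered genes, znf609a was among the 10 with the highest ratio, at 41.1 TPM in the α-amanitin column and 6.16 TPM in the control column (2.56). The level of znf367 was 102 TPM with α-amanitin and 39.7 TPM in the control (1.34), and that of znf574 was 62.7 TPM with α-amanitin and 24.4 TPM in the control (1.33). Under scaling, znf367 came to 0.85 and znf574 to 0.84, short of 2-fold.

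Genes that share a number and carry the letters a and b were compared within pairs. The pairs were made by symbol alone, and whether the genes of a pair are duplicates of each other was not checked. The pairing left out znf609, which the newer GRCz12tu gene table calls znf609b. Its log2 ratio was 0.016 (−0.47 under scaling), beside 2.56 (2.07 under scaling) for znf609a. Of the 8 pairs with both genes in the table, 5 had log2 ratios of opposite sign, and 4 under scaling, where znf395b came to −0.30 beside znf395a at −0.97. Over all RefSeq genes 7285 ratios were below 0 and 7014 above 0. The share of opposite signs among other pairs was not computed, so 5 of 8 is not read as divergence of copies. The copy zbtb2a (3.69) was higher in the α-amanitin column, while zbtb2b was listed at 0 there and at 3.12 TPM in the control column. The genes zbtb8a and zbtb8b, paired here by name only, also differed in direction, with the values given above. Only the zbtb2 and zbtb8 pairs had both genes past 2-fold in opposite directions, and each includes a level listed at 0. For znf292, mutated in a human neurodevelopmental disorder, the a copy was at 17.3 TPM with α-amanitin and 40.8 TPM in the control (−1.19), and the b copy at 30.5 TPM with α-amanitin and 21.4 TPM in the control (0.49, and 0.0028 under scaling). Both copies of znf800 were lower in the α-amanitin column (−2.26 for znf800a and −1.31 for znf800b). Of the other opposite pairs, znf143b (−0.09) and both copies of znf395 (−0.48 for a and 0.19 for b) were within 2-fold.

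The corepressors and ubiquitin ligase parts that BTB domains bind were read beside the members. Of 19 measured partner genes, 5 were at least 2-fold lower in the α-amanitin column and 6 higher (median log2 ratio 0.10, and −0.39 under scaling), near the background of genes that reach 1 TPM (30.2% lower and 34.5% higher). The Cullin 3 gene cul3b was at 49.2 TPM in the α-amanitin column and 10.01 TPM in the control column (2.19), and its copy cul3a at 33.7 TPM with α-amanitin and 48.2 TPM in the control (−0.50). The corepressor gene ncor1 was at 12.9 TPM with α-amanitin and 18.6 TPM in the control (−0.50). Among parts of corepressor complexes, tbl1xr1a was at 2.31 TPM in the α-amanitin column and 33.4 TPM in the control column, and tbl1xr1b at 128 TPM with α-amanitin and 0.0235 TPM in the control. The untreated library held 2 long-read models of tbl1xr1b, so its RNA was sampled there and its low control level can be a failed estimate.

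Zinc finger genes with names other than znf or zbtb served as a further comparison. Of 34 measured, 21 were at least 2-fold lower in the α-amanitin column and 5 higher (median log2 ratio −1.55). Over all genes 22.5% were lower and 25.7% higher, and among those that reach 1 TPM in a column 30.2% and 34.5%. This list holds known embryonic patterning genes such as zic2b, at 1.02 TPM with α-amanitin and 426 TPM in the control, and sp5l, at 0.215 TPM with α-amanitin and 139 TPM in the control. The 5 higher were ctcf, hic2, hinfp, mynn and bcl6aa, of which mynn (0.63) and bcl6aa (0.57) were within 2-fold under scaling. Of these ctcf, the insulator protein gene, was at 75.9 TPM in the α-amanitin column and 9.35 TPM in the control column (2.89). The level of hic2 was 40.7 TPM with α-amanitin and listed at 0 in the control (5.38). The untreated library held 1 long-read model of hic2, so this 0 can be a failed estimate. That list was chosen by hand with developmental genes in it and is not a sample of zinc finger genes.

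Long-read models were found for 79 members, and 35 had none. With α-amanitin, the long reads named 66 of the 114 members (57.9%, Wilson 95% interval 48.7 to 66.6) with 103 models, and the untreated library 62 (54.4%, 45.2 to 63.2) with 102 models; these intervals cover counting error alone. Among all genes of the expression table the shares were 44.3% with α-amanitin and 43.6% untreated. Both libraries named 49 members (36.9% of all genes in the table), 17 were named with α-amanitin alone (7.47% of all genes) and 13 in untreated embryos alone (6.71% of all genes). A model is a collapsed transcript structure counted once whatever its abundance, so these counts are not levels.

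High-numbered znf genes were named least often, with 11 of 29 having a model after α-amanitin (37.9%, 22.7 to 56.0) and 14 in untreated embryos (48.3%, 31.4 to 65.6). The lower-numbered znf genes had 40 of 61 with α-amanitin (65.6%) and 35 untreated (57.4%). Of 24 zbtb genes, 15 (62.5%) were named with α-amanitin and 13 (54.2%) untreated. The intervals of the 2 libraries overlapped in each group.

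Members named in 1 library alone were set beside their levels. Of those with a level, the 15 named with α-amanitin alone had a median log2 ratio of 1.60, and the 12 named in untreated embryos alone −0.74. Over all genes both of these medians were 0.30. With so few members, single genes went either way. The gene znf1124 had 2 models with α-amanitin and 0 untreated, although its level was 4.46 TPM in the α-amanitin column and 50.6 TPM in the control column. Its models lie at the long-read locus that also holds the znf1024 model of that library, and the untreated library had 2 models named znf1024, one of 1692 bases, where the longer znf1124 model had 1688. Whether models were divided between these genes by name was not tested. Conversely znf710a, whose 2 models were found with α-amanitin alone, was at 52.5 TPM in the α-amanitin column and 9.76 TPM in the control column. Likewise znf598 and znf1173 had 2 models with α-amanitin alone, and their levels were higher in the α-amanitin column. The member with 2 models in the untreated library alone was znf800a, at 7.01 TPM with α-amanitin and 37.4 TPM in the control.

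**Figure D4:**
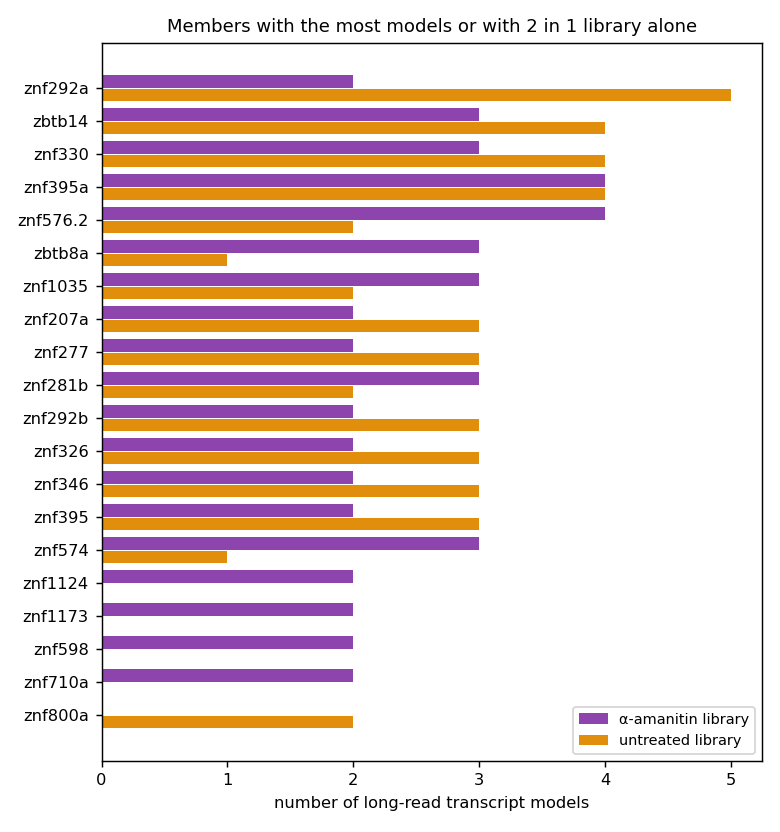
Number of long-read transcript models per gene in the α-amanitin library (upper bar) and the untreated library (lower bar), for members with at least 3 models in either library or with 2 in 1 library and 0 in the other. The most was 5 models, of znf292a in the untreated library, which had 2 in the α-amanitin library.

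At least 2 models were found for 27 of 66 named members with α-amanitin (40.9%) and for 25 of 62 untreated (40.3%), where 34.9% (α-amanitin) and 33.3% (untreated) of all named genes had them. The members with 4 models in the α-amanitin library were znf395a, which also had 4 in the untreated library, and znf576.2, which had 2 there. The gene zbtb14 had 3 models in the α-amanitin library, of classes = (all introns match a reference transcript), j (a shared splice junction in another structure) and c (contained in a reference transcript), and 4 in the untreated library. Its intron-matched model was 2305 bases long with α-amanitin and 2281 bases untreated, against a reference of 1947 bases. Both are longer than the annotated transcript, by 358 and 334 bases. The 3 models of zbtb8a in the α-amanitin library included an intron-matched one of 2629 bases, and its single model in the untreated library matched all introns at 2452 bases, against a reference of 2192 bases.

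Class j was the largest class among the members' models in the α-amanitin library, with 39 of 103 (37.9%, 29.1 to 47.5), against 29 of the 102 untreated models (28.4%, 20.6 to 37.8). Class = held 35 models (interval 25.6 to 43.6%) with α-amanitin and 34 (33.3%, 24.9 to 42.9) untreated. Class c held 18 (17.5%, 11.3 to 25.9) with α-amanitin and 26 (25.5%, 18.03 to 34.7) untreated. Among all models that name a gene, class = made up 40.4% with α-amanitin and 40.3% untreated, class j 32.6% with α-amanitin and 30.4% untreated, and class c 18.4% with α-amanitin and 20.1% untreated. The intervals of the 2 libraries overlapped for each of these classes. An intron-matched model was found for 33 members with α-amanitin, for 32 untreated and for 24 in both libraries.

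The rarer classes named further structures. Antisense models (class x) lay over znf281b (1158 bases) and znf367 (920 bases) in the α-amanitin library, and over znf367 (749 bases) and znf865 (813 bases) in the untreated library. The models of znf367 were this antisense one and, in the α-amanitin library, a possible pre-mRNA fragment of 309 bases (class e), so neither library held a sense spliced model of the gene that ranks among the 5 highest of the α-amanitin column. For zbtb18 both libraries held a single run-on model (class p), of 1700 bases with α-amanitin and 341 bases untreated. Neither znf367 nor zbtb18 had an intron-matched model.

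Models of the members were shorter relative to their reference than those of other genes. The median ratio of model to reference length was 0.88 with α-amanitin and 0.79 untreated, against 0.96 (α-amanitin) and 0.95 (untreated) over all models that name a gene. The members' references were also longer, with medians of 2158 bases (α-amanitin) and 2041.5 bases (untreated), against 1933 bases (α-amanitin) and 1909 bases (untreated) over all such models. In bases the members' models were longer, with medians of 1700 (α-amanitin) and 1551.5 (untreated), against 1519 and 1468 over all such models. Of the intron-matched models, 19 of 35 with α-amanitin (54.3%) and 26 of 34 untreated (76.5%) were within 10% of the reference length, where 69.5% of all intron-matched models were in each library. The members' intron-matched models were shorter or longer than the reference. Their length ratios ran from 0.18 to 1.64 with α-amanitin (median 0.999) and from 0.14 to 1.21 untreated (median 1.002). Model lengths of the members ran from 304 to 4310 bases with α-amanitin and from 326 to 4779 bases untreated.

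The longest references were covered in small part. The znf292a reference is 7766 bases, and its intron-matched model spanned 1519 bases with α-amanitin and 1511 bases untreated. For znf292b, with a reference of 8412 bases, the intron-matched model with α-amanitin had 1536 bases, and the 3 models of untreated embryos were contained ones of 343 to 881 bases. The reference of znf1035 is 9210 bases, and its intron-matched models were 2052 bases with α-amanitin and 1255 bases untreated. In contrast znf281b, with a reference of 4758 bases, had an intron-matched model of 4779 bases in the untreated library and one of 2961 bases in the α-amanitin library. The longest model of any gene was 6996 bases with α-amanitin and 5772 bases untreated, below each of the 3 longest references named here.

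**Figure D5:**
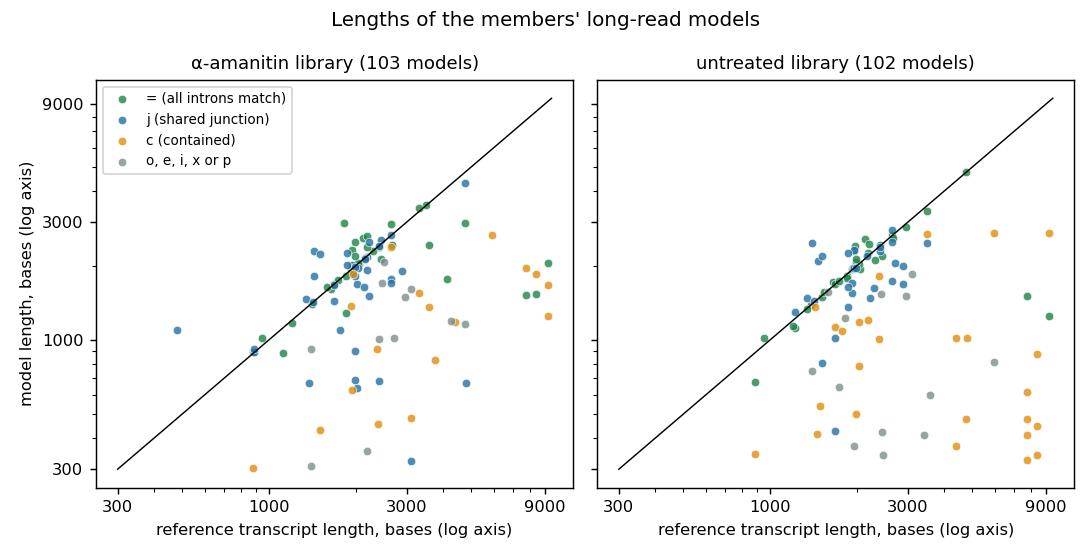
Length of each member's long-read model against the length of its reference transcript, both in bases on log axes, with the α-amanitin library left and the untreated library right; the line marks equal lengths and colours give the class code. Intron-matched models mostly lie near the line, and models of the longest references (znf292a, znf292b and znf1035) all lie below it.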

How the data were processed

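Per the series description, the authors assembled long reads with IsoSeq, mapped them to GRCz10 with GMAP and compared them with a reference using Cuffcompare; versions are not given in the sources used here. The deposited comparison tables give the length of each model and its reference in bases; their FPKM values are 0 in every row (0 above 0) and were not used, so read depth is unknown. The deposited expression table holds log2 values, read as log2(TPM + 1) because TPM sums to 1000000 in each column; the submitters' processing notes name kallisto without a role. TPM keeps no depth. The α-amanitin and control columns were assigned to the groups by name; 0 columns were left without a group.

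Of 15936 RefSeq transcripts, 15455 received a symbol, 7695 from the Cuffcompare tables and 7760 from the GRCz12tu RefSeq table. TPM was summed per symbol, and log2 ratios used a pseudocount of 1 TPM, which understates the change of low genes, with a 2-fold threshold. Long-read (PB) transcripts were not joined to genes. Wilson intervals cover counting error alone. Functions were tested on simulated data. Python 3.11.15, numpy 2.4.6, pandas 2.3.3, scipy 1.17.1 and matplotlib 3.10.9 were used.

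Named genes were the 10 highest and 10 lowest log2 ratios among members reaching 10 TPM in a column, the 5 highest per column, members with at least 3 models, or with 2 in 1 library alone, and up to 4 per role list; other genes were chosen after their values were seen. Members, lists and groups were chosen with earlier results of these data known. Planned protein features were not analysed here.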

Additional observations from a re-analysis of the deposited data

How the results depend on the processing

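No paired analysis was possible because each group has 1 library. Without an interval, any change of a median at 2 decimals counts as moved, and the cause was not tested unless the construction gives it. A 4-fold threshold left 21 members lower (18.9%, and 12.7% of all genes) and 19 higher (17.1%, and 13.0% of all genes) in the α-amanitin column, as fewer pass. The balance of calls thus turned over from the 34 lower and 40 higher at 2-fold. Scaling shifted every median by construction: −0.44 (all members), −0.49 (znf), −1.52 (znf 900 and above), −0.34 (znf below 900) and 0.96 (zbtb); those of all members and of lower-numbered znf genes reversed, as did znf576.2 (−0.16). With a pseudocount of 0.1 the medians were 0.11, −0.017, −1.09, 0.24 and 1.88 in that order. A minimum of 1 TPM in either column gave 0.19 (all members), −1.12 (znf 900 and above) and 0.36 (znf below 900). Single transcripts gave 0.016, −0.99 and 0.048 for the same groups. The other alternatives were chosen after seeing the data. Without members below 0.001 TPM in either column the medians were 0.017 (all members), −1.12 (znf 900 and above), 0.11 (znf below 900) and 1.24 (zbtb). Members with no long-read model gave 17 lower (48.6% of them) and 7 higher (20.0%), and medians of −0.60 (all members, reversed), −1.04 (znf), −2.38 (znf 900 and above), −0.087 (znf below 900, reversed) and 0.48 (zbtb). GRCz12tu symbols gave 0.032 (all members) and 0.11 (znf below 900). Requiring at least 2 models left 27 members in the α-amanitin library, 25 in the untreated library and 18 in both, by construction. With the longest model per gene, class = made up 43.9% of member models with α-amanitin and 43.5% untreated. Across these alternatives, each changed alone, the median of the high-numbered znf genes was negative and that of the zbtb genes positive, but with scaling added the 8 zbtb genes without a model came to −0.0057. Unknown depth limits every value near 0.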
